A study of Saccharomyces cerevisiae with 8 samples.

Results

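Sporulation is the programme by which a diploid yeast cell, starved of nitrogen and of a fermentable carbon source, passes through meiosis and packs the products into spores. Its genes are switched on in waves: Ime1 starts the early genes, which carry the URS1 promoter element bound by Ume6, and Ndt80 then starts the middle genes, whose products build the prospore membrane and the spore wall. In growing cells Ume6 holds the early genes down together with the histone deacetylase Rpd3, and in haploid cells Rme1 holds down IME1 itself.

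The 10 genes described here are IME1, UME6, IME2 and NDT80 (regulators), SPO11, HOP1 and DMC1 (recombination and the chromosome axis), and GIP1, SMA1 and SMA2 (spore formation). They were chosen by their systematic names from a count table of 5545 genes of Saccharomyces cerevisiae. All 10 were in the table, and all 10 passed the filter on low counts that left 5488 genes for testing. The choice was made with earlier results of these libraries known, among them the low SMA1 and SMA2 footprint counts at 10 µM spermidine. Footprint differences of the 10 genes between the conditions are therefore given as a description, without p-values. The efficiency difference and the footprint level at 10 µM of SMA1 and SMA2 rest on those same libraries. Which other values were known is not recorded, so the RNA tests may not be independent of the choice either. The table holds only genes with at least 1 read in every library, so a meiotic gene silent in any library would not be seen in it.

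Ribosome footprints (mRNA stretches that ribosomes shield from nuclease) and total RNA came from a MATa ura3-52 leu2 strain in which SPE1 (ornithine decarboxylase) and SPE2 (S-adenosylmethionine decarboxylase) were each replaced by LEU2. All 4 groups carry these alleles, so each group lacks polyamine synthesis and no group is wild type. Cultures in synthetic dextrose medium at 30 °C received 0 or 10 µM spermidine, and each condition gave 2 footprint and 2 RNA libraries, 8 in all. Whether replicates were separate cultures is not in the labels, so the spread behind each p-value is that between these libraries and may be technical.

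RNA libraries summed to between 1786419 and 2884632 counts and footprint libraries to between 3324344 and 7089928. The mating type on the label was checked against markers. The 7 markers of a cells, the pheromone receptor gene STE2 and the pheromone gene MFA1 among them, summed to 1264 to 1493 CPM in RNA and 1209 to 1568 CPM in footprints (CPM are counts scaled to the same composition-adjusted library total). The markers of alpha cells, 3 of 4 of which were in the table, summed to 45.0 to 53.3 CPM in RNA and 9.82 to 18.1 CPM in footprints. MF(ALPHA)2 was not analysed here. The 9 haploid-specific markers, GPA1 and STE4 of the pheromone pathway among them, summed to 983.7 to 1775 CPM in RNA and 738.0 to 1231 CPM in footprints. None of the 9 was called in RNA (8.45% of all tested genes were called higher and 13.5% lower) and 5 rose in footprints (18.7% of all tested genes were called higher), while 2 of the 7 a cell markers rose in each assay.

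The 10 genes were a small part of every library. Together they held 0.0402% and 0.0538% of RNA counts at 0 µM, 0.113% and 0.0942% at 10 µM, and 0.0134% to 0.016% of footprint counts. GIP1 supplied most of the difference between the RNA libraries: the other 9 genes made up 57.6% and 53.9% of the summed reads at 0 µM but 21.6% and 35.7% at 10 µM. Between 0 and 5 of the 10 genes had fewer than 20 reads in a given library, so counts are given beside levels. In these bulk samples, fewer cells with a transcript and less transcript per cell cannot be told apart.

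Per kb of gene span, which for DMC1 includes an intron, 8 of the 10 genes lay in the lowest 20% of the table in RNA at both concentrations. At 0 µM GIP1 (107 CPM per kb of RNA) and NDT80 (68.4) stood above the rest, with 76.6% and 65.9% of genes lower. The other 8 ran from DMC1 at 17.0 CPM per kb down to HOP1 at 5.05, with between 15.1% and 1.82% of genes lower. At 10 µM GIP1 RNA stood at 371 CPM per kb with 92.8% of genes lower, NDT80 at 88.4 with 73.3% lower, and the other 8 between 14.4 and 6.66. Among these 8, a gene exceeded the next by more than the larger of their SDs only for SPO11 over HOP1 at 0 µM and UME6 over IME1 at 10 µM. In footprints GIP1 led at both concentrations (20.1 and 26.2 CPM per kb; at 10 µM it exceeded DMC1, at 22.9, by less than the larger SD), while NDT80 had only 10.2% and 11.6% of genes below it.

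**Figure D1:**
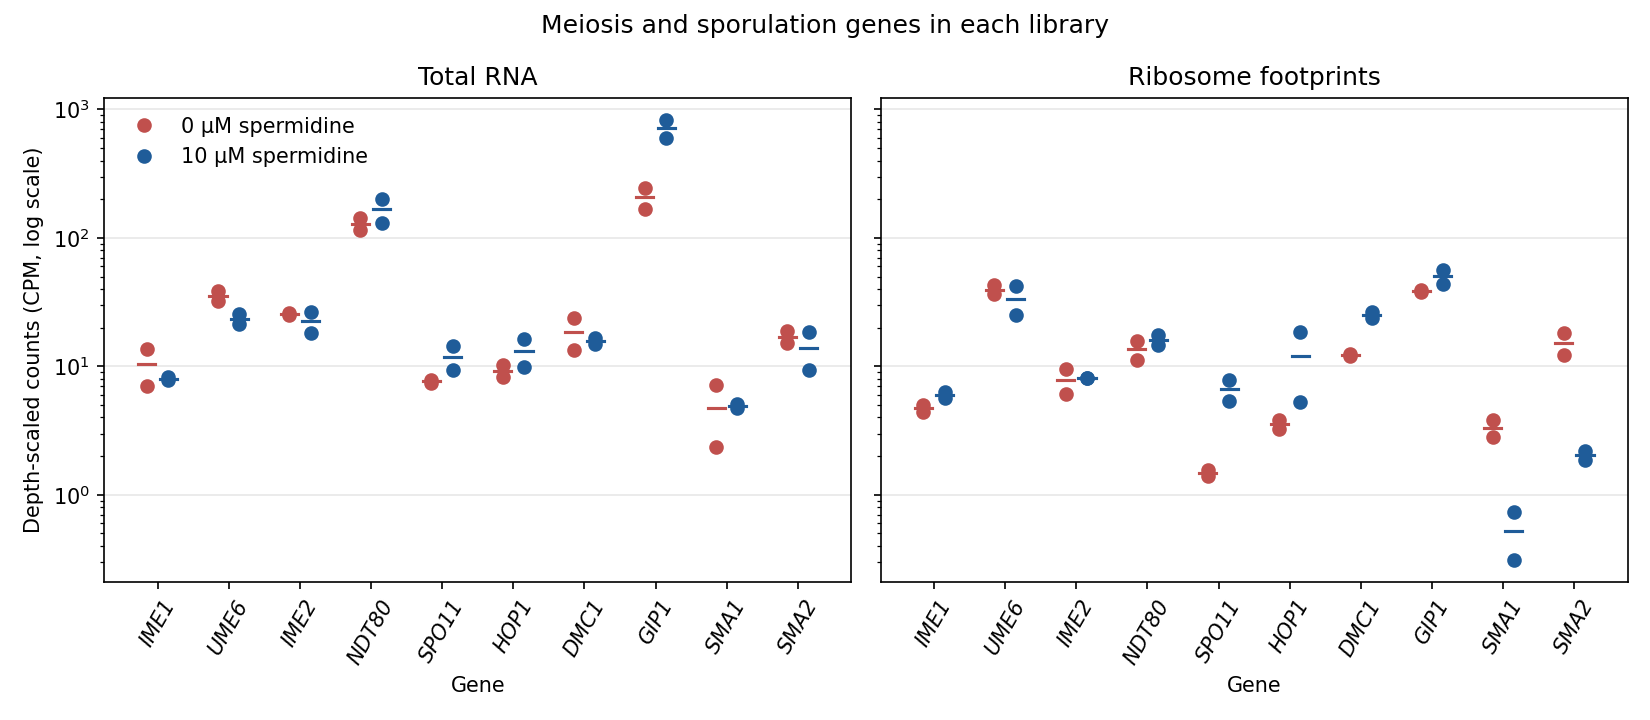
Depth-scaled counts (CPM, log axis) of the 10 genes in each RNA library (left) and footprint library (right), at 0 µM (red) and 10 µM (blue) spermidine; points are libraries and bars are means of 2. GIP1 RNA is higher in both 10 µM libraries (598 and 828 CPM) than in both 0 µM libraries (168 and 245), and SMA1 and SMA2 footprints are lower at 10 µM.

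RNA of 1 of the 10 genes, GIP1, changed with spermidine, beside 8.45% of all tested genes called higher and 13.5% called lower. GIP1 encodes a meiosis-specific targeting subunit of the protein phosphatase Glc7, needed for septin organisation and spore wall formation (YBR045C; chromosome II, 328173 to 330092, R64). It had 430 and 716 RNA reads at 0 µM and 1586 and 1166 at 10 µM, which is 168 and 245 CPM against 828 and 598 CPM. The libraries of the conditions did not overlap. GIP1 RNA rose 3.45-fold, with a mean of 206 ± 54.0 CPM at 0 µM and 713 ± 163 CPM at 10 µM (SD, n = 2). The log2 change was 1.79 (SE 0.20, edgeR quasi-likelihood adjusted p = 0.00049). Whether this value was known when the gene was chosen is not recorded. The call was kept in all 16 other settings, and over the 8 omissions of 1 library the change ran from 1.53 to 2.08.

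GIP1 footprints numbered 189 and 276 at 0 µM and 141 and 231 at 10 µM, which is 38.1 and 39.3 CPM against 44.2 and 56.5 CPM. Both 10 µM libraries were higher, by a mean log2 difference of 0.39 (SE 0.22). The ratio of footprint to RNA CPM was 0.187 at 0 µM and 0.0706 at 10 µM. The difference in that ratio, taken as translational efficiency, was -1.40 on the log2 scale (SE 0.30) and just missed the threshold (edgeR adjusted p = 0.052). Across 15 other settings it kept its sign and passed in 5, with a largest adjusted p of 0.14.

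GIP1 overlapped no gene annotated in RefSeq. Its nearest neighbour in the table was ZTA1, an NADPH-dependent quinone reductase, 414 bases away. The log2 change of ZTA1 RNA was 0.91 (edgeR adjusted p = 0.017), a call lost without RNA replicate 1 at 0 µM or either RNA replicate at 10 µM. ZTA1 footprints rose by 0.73 (edgeR adjusted p = 0.0040). The systematic names place both genes on the Crick strand with ZTA1 upstream of GIP1, and reads that span the pair cannot be seen in counts per gene.

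RNA of the other 9 genes was not called, beside 21.9% of all tested genes. Their log2 differences ran from -0.59 to 0.63, and the median over all 10 was -0.09, against 0.0016 over all tested genes. The libraries of the conditions did not overlap in 3 of the 10 genes, beside 60.1% of all tested genes: GIP1 and SPO11 were higher at 10 µM and UME6 lower.

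Among the regulators, IME1, the activator that starts the programme (YJR094C; chromosome X, 604569 to 605651), had 18 and 40 RNA reads at 0 µM and 15 and 16 at 10 µM. The levels were 7.04 and 13.7 CPM against 7.83 and 8.21 CPM, which overlap (log2 difference -0.39, SE 0.35, edgeR adjusted p = 0.49). IME1 footprints numbered 22 and 35 at 0 µM and 18 and 26 at 10 µM. At 4.43 and 4.98 against 5.64 and 6.36 CPM they were slightly higher in both 10 µM libraries, a log2 difference of 0.35 (SE 0.33) about as large as its error. The noncoding gene IRT1 beside IME1 was not analysed here.

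UME6, the URS1-binding repressor (YDR207C; chromosome IV, 865012 to 867522), had 82 and 113 RNA reads at 0 µM and 41 and 50 at 10 µM, which is 32.1 and 38.6 CPM against 21.4 and 25.7 CPM. Both 10 µM libraries were lower, but the difference did not pass the test (log2 -0.59, SE 0.27, edgeR adjusted p = 0.16). UME6 was the best represented of the regulators in footprints, with 212 and 257 reads at 0 µM and 135 and 102 at 10 µM. These were 42.7 and 36.6 CPM against 42.3 and 24.9 CPM, so the groups overlapped and the 10 µM replicates were far apart (log2 difference -0.25, SE 0.22).

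IME2, a protein kinase that promotes meiotic entry and later NDT80 expression (YJL106W; chromosome X, 221390 to 223327), stood at 25.03 and 26.0 CPM in RNA at 0 µM and 18.3 and 26.7 CPM at 10 µM. Its footprints stood at 9.47 and 6.12 CPM against 8.15 and 8.07 CPM. Both sets overlapped, and the log2 differences were -0.18 (SE 0.25, edgeR adjusted p = 0.66) in RNA and 0.09 (SE 0.28) in footprints.

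NDT80, the activator of middle sporulation genes (YHR124W; chromosome VIII, 356561 to 358444), had much RNA for its footprints. RNA reads numbered 296 and 415 at 0 µM and 251 and 394 at 10 µM (116 and 142 against 131 and 202 CPM). Footprint reads numbered 56 and 111 against 47 and 72 (11.3 and 15.8 against 14.7 and 17.6 CPM). The conditions overlapped in both assays (log2 difference in RNA 0.37, SE 0.21, edgeR adjusted p = 0.24; in footprints 0.24, SE 0.28).

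The recombination genes among the 10 were all low in RNA and had more footprints at 10 µM. The 22 further recombination and axis genes tested, described below, had a median log2 footprint change of -0.16. SPO11 encodes the protein that makes the DNA breaks of meiotic recombination (YHL022C, chromosome VIII, 62961 to 64157). Its footprints numbered 7 and 11 at 0 µM and 25 and 22 at 10 µM, although the 10 µM libraries were the shallower ones. In CPM these were 1.41 and 1.57 against 7.83 and 5.38, a log2 difference of 2.09 (SE 0.37). Its RNA stood at 7.43 and 7.86 CPM against 9.40 and 14.4 CPM from 18 to 28 reads a library. Both 10 µM libraries were higher, without passing the test (log2 0.63, SE 0.32, edgeR adjusted p = 0.19).

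DMC1, the meiosis-specific strand exchange protein of the RecA family (YER179W; chromosome V, 548421 to 549517), had 62 and 84 footprints at 0 µM and 76 and 108 at 10 µM. In CPM these were 12.5 and 11.9 against 23.8 and 26.4, a log2 difference of 1.04 (SE 0.23) with tight replicates. DMC1 RNA stood at 13.3 and 23.9 CPM at 0 µM and 16.7 and 14.9 CPM at 10 µM, which overlap (log2 -0.25, SE 0.28, edgeR adjusted p = 0.58).

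HOP1 encodes a protein of the meiotic chromosome axis (YIL072W; chromosome IX, 226602 to 228419). Its footprints numbered 19 and 23 at 0 µM and 17 and 76 at 10 µM, or 3.83 and 3.27 against 5.33 and 18.6 CPM. Replicate 2 at 10 µM carried most of the difference: the log2 value was 1.81 (SE 0.50) with it and 0.59 without it. HOP1 RNA stood at 10.2 and 8.20 CPM against 9.92 and 16.4 CPM, which overlap (log2 0.53, SE 0.54, edgeR adjusted p = 0.54).

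SMA1 and SMA2, both needed to form the prospore membrane, showed the opposite picture in footprints. SMA2 (YML066C; chromosome XIII, 140424 to 141533) had 90 and 86 footprints at 0 µM and 6 and 9 at 10 µM, or 18.1 and 12.2 against 1.88 and 2.20 CPM. Its footprints were 7.17-fold lower at 10 µM, a log2 difference of -2.84 (SE 0.40). The low counts at 10 µM were known when the gene was chosen. SMA2 RNA numbered 39 and 55 reads at 0 µM and 18 and 36 at 10 µM, or 15.3 and 18.8 against 9.40 and 18.5 CPM. The RNA groups overlapped (log2 -0.29, SE 0.34, edgeR adjusted p = 0.60).

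SMA1 (YPL027W; chromosome XVI, 499665 to 500402) rests on few reads. Footprints numbered 14 and 27 at 0 µM and 1 and 3 at 10 µM, or 2.82 and 3.84 against 0.313 and 0.734 CPM. Pooled within condition, 41 reads stood against 4. SMA1 RNA numbered 6 and 21 reads at 0 µM and 9 and 10 at 10 µM, or 2.35 and 7.17 against 4.70 and 5.13 CPM. The RNA difference was 0.0077 on the log2 scale (SE 0.53, edgeR adjusted p = 0.99), and it changed sign with the library left out, from -0.55 without RNA replicate 1 at 0 µM to 1.05 without RNA replicate 2 at 0 µM.

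The neighbours of these genes had their own values. SMA1 lies 372 bases from ERG10 (acetoacetyl-CoA thiolase), which rose in RNA by 0.49 and in footprints by 0.88 (edgeR adjusted p = 0.010 and 0.00023), the direction opposite to SMA1 footprints; the RNA call was lost without RNA replicate 1 at 10 µM. SMA2 lies between ERV41 and ORC1, with footprint differences of -0.03 and 0.40 that were not called (edgeR adjusted p = 0.87 and 0.27). Footprints of AIM17 beside SPO11 rose by 0.57 (edgeR adjusted p = 0.0049), those of EBS1 and MSS4 on either side of UME6 fell by 0.64 and 0.45 (edgeR adjusted p = 0.0030 and 0.0054), and RNA of PDA1 beside DMC1 fell by 0.37 (edgeR adjusted p = 0.021). The PDA1 call was lost without RNA replicate 1 at either concentration, with DESeq2 and with RNA fitted alone. None of the 10 genes overlapped another annotated gene.

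For description, the calls of the fit over all genes include 5 of the 10 genes in footprints, SPO11, HOP1 and DMC1 upwards and SMA1 and SMA2 downwards, beside 18.7% of all tested genes called higher and 19.8% called lower (38.5% either way). Nothing is read from these 5, since footprint values were known when the genes were chosen. Footprint libraries of the conditions did not overlap in 7 of the 10 genes, 5 higher and 2 lower at 10 µM, beside 72.6% of all tested genes.

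**Figure D2:**
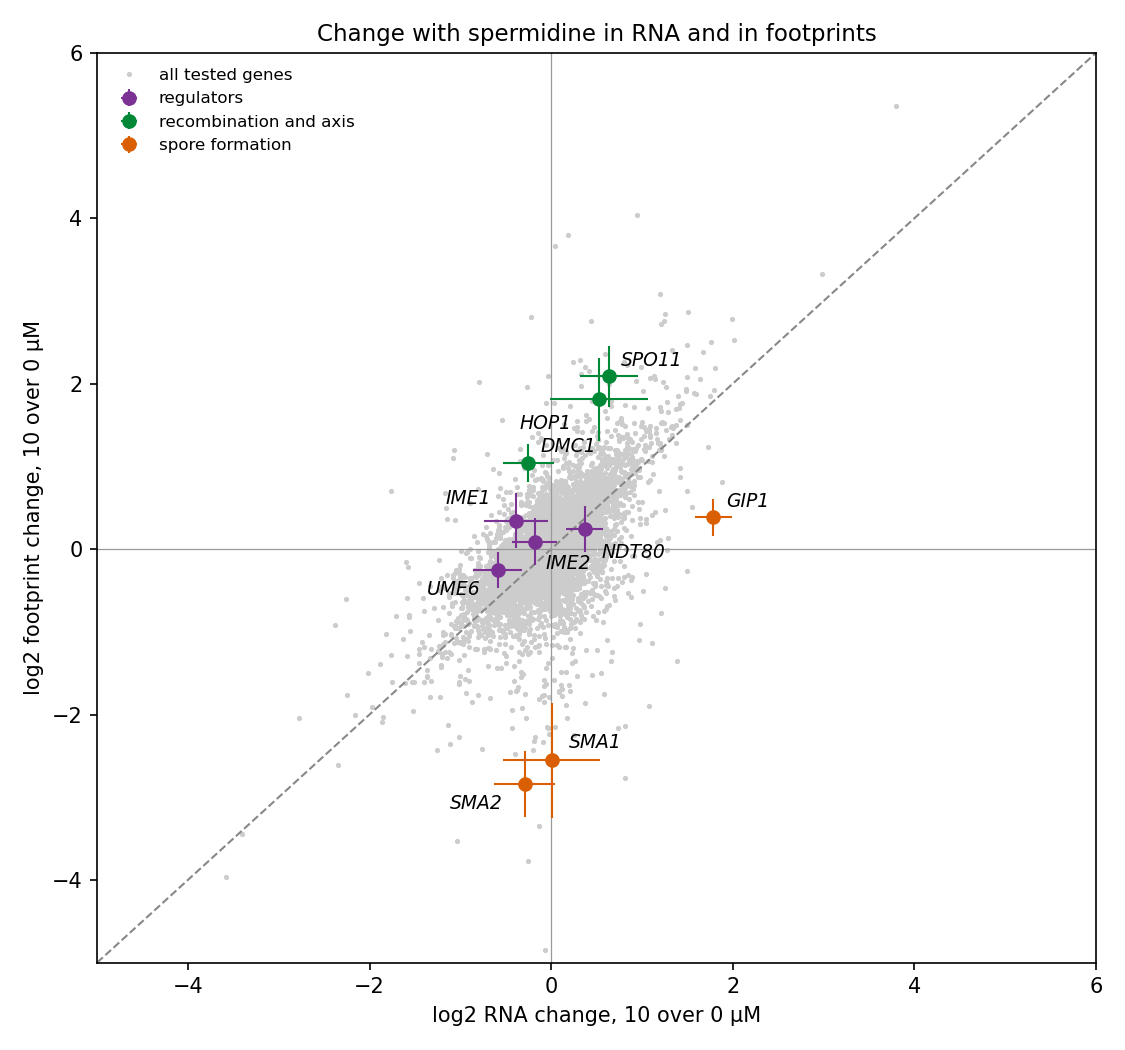
Log2 change with 10 over 0 µM spermidine in RNA (x axis) and in footprints (y axis) for all tested genes (grey) and the 10 genes (coloured by role, bars are 1 SE); the dashed line marks equal change. SPO11, HOP1 and DMC1 lie above the line, SMA1 and SMA2 below it near an RNA change of 0, and GIP1 to the right at 1.79 in RNA and 0.39 in footprints.

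None of the 10 efficiency differences passed the test over all genes (edgeR), where 1.79% of tested genes were called, 0.893% higher and 0.893% lower. With limma voom 0 of the 10 were called, beside 87 genes in all. DESeq2 called 2 of the 8 to which it gave an adjusted p, GIP1 and SMA2, beside 137 genes in all. Efficiency values of SMA1 and SMA2 rest on the footprint libraries known when they were chosen. The edgeR values ran from -2.56 for SMA1 and -2.55 for SMA2 to 1.46 for SPO11, 1.30 for DMC1 and 1.28 for HOP1, with a median of 0.30 against 0.05 over all tested genes. The 4 regulators lay between -0.13 and 0.73.

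The ratio of footprints to RNA within a condition compares the footprint and RNA counts of a gene, relative to the typical gene. Whether counting used strand is not given in the sources used here, so antisense or read-through RNA across a gene, GIP1 and NDT80 included, cannot be told apart from its own mRNA, and a low ratio is not a measure of ribosomes per mRNA alone. At 0 µM, 6 of the 10 genes were called below the typical gene and none above, beside 32.7% of tested genes called lower and 31.7% called higher (64.4% either way). The median log2 ratio of the 10 was -1.26, against 0.02 over all tested genes. NDT80 had the lowest ratio at -3.23 (SE 0.24, edgeR adjusted p = 3.1e-06), with 3.19% of genes lower. GIP1 followed at -2.42 (SE 0.22, edgeR adjusted p = 1.1e-05) and SPO11 at -2.33 (SE 0.38, edgeR adjusted p = 0.00045).

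IME2 (-1.74, SE 0.25, edgeR adjusted p = 0.00020), IME1 (-1.14, SE 0.32, edgeR adjusted p = 0.010) and DMC1 (-0.62, SE 0.25, edgeR adjusted p = 0.049) were the other 3 called lower. IME1 lost its call with DESeq2 and without RNA replicate 2 at 0 µM, where its value was -0.59. DMC1 lost its call in 11 of 15 other settings, and its value was -0.14 without RNA replicate 2 at 0 µM. HOP1 (-1.37, SE 0.55), SMA1 (-0.52, SE 0.46), SMA2 (-0.19, SE 0.29) and UME6 (0.16, SE 0.23) were not called (edgeR adjusted p = 0.052, 0.34, 0.58 and 0.56).

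At 10 µM the 2 genes with the most RNA again had low ratios. NDT80 stood at -3.35 (SE 0.25, edgeR adjusted p = 2.9e-06), GIP1 at -3.82 (SE 0.23, edgeR adjusted p = 6.2e-07) and IME2 at -1.47 (SE 0.28, edgeR adjusted p = 0.0012). These 3 were called in all 15 other settings at both concentrations. SPO11 stood at -0.87 (SE 0.31, edgeR adjusted p = 0.033). DESeq2 did not call it, nor did edgeR without RNA replicate 2 or footprint replicate 2 at 10 µM, where the values were -0.52 and -0.60. DMC1 was called above the typical gene, at 0.67 (SE 0.26, edgeR adjusted p = 0.046), a call lost in 10 of 15 other settings.

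IME1 (-0.41), HOP1 (-0.09) and UME6 (0.49) were not called at 10 µM (edgeR adjusted p = 0.35, 0.88 and 0.13). SMA1 and SMA2 stood at -3.09 (SE 0.77) and -2.74 (SE 0.46), values that rest on the footprint libraries known when they were chosen. With them, 6 of the 10 genes were called lower and 1 higher, beside 31.4% and 34.2% of tested genes (65.6% either way). Of the 1053 tested genes in the lowest 20% of the table by RNA per kb at 0 µM, 41.2% were called lower and 13.3% higher, with a median of -0.37. Over all tested genes 32.7% were called lower and 31.7% higher at 0 µM. Whether the ratio follows abundance was not tested, and GIP1 and NDT80 lay outside that range. The 8 described genes in that range had 4 called lower and a median of -0.88.

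**Figure D3:**
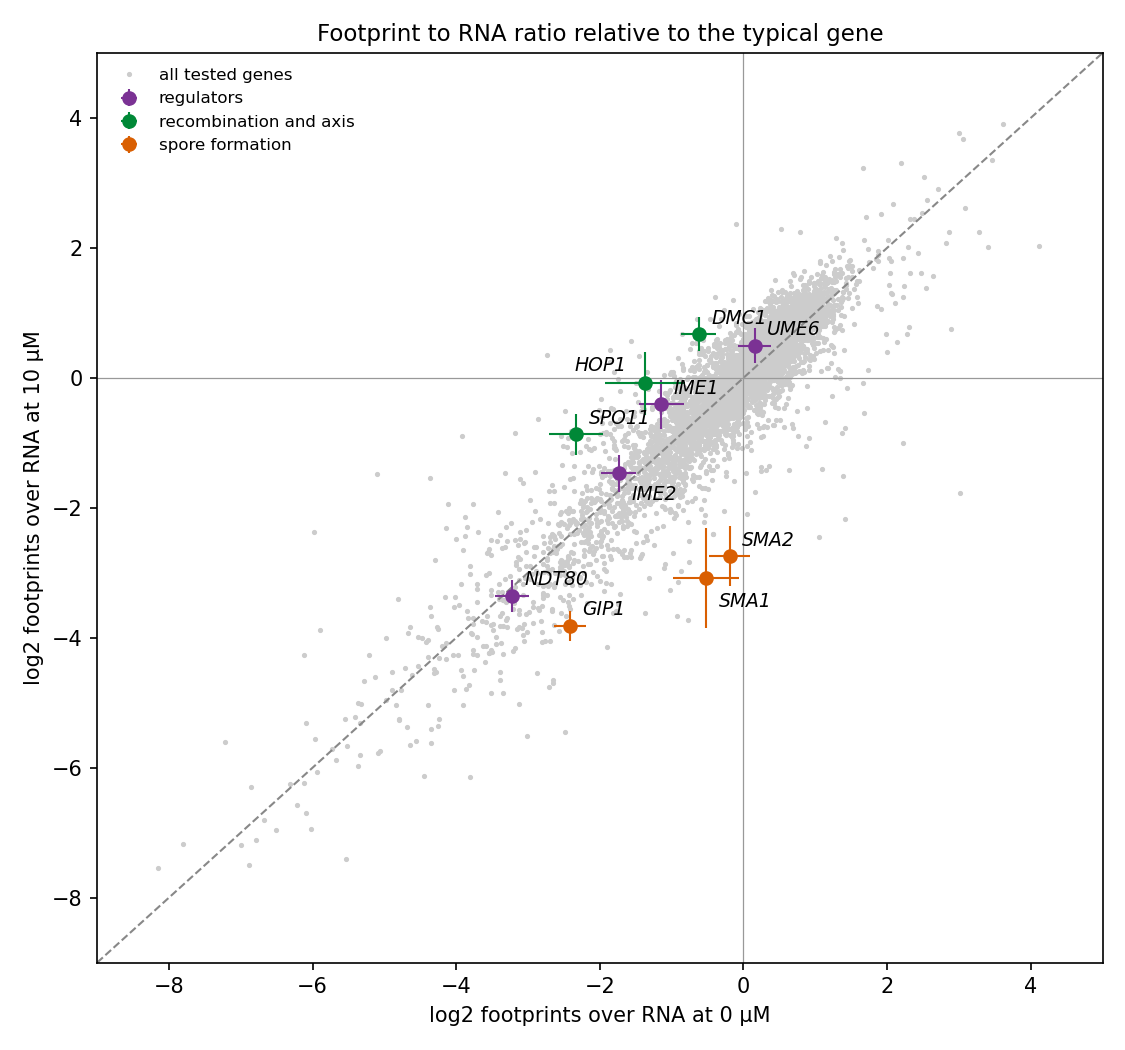
Log2 footprint to RNA ratio relative to the typical gene at 0 µM (x axis) and 10 µM (y axis) spermidine for all tested genes (grey) and the 10 genes (coloured by role, bars are 1 SE); the dashed line marks equal ratios. NDT80 (-3.23 and -3.35) and IME2 (-1.74 and -1.47) lie near the line, SPO11, HOP1 and DMC1 above it, and SMA1, SMA2 and GIP1 below it.

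Other genes of the programme were described in 4 lists. Among 25 regulators of meiotic entry, all tested, RNA of 2 rose and 2 fell, beside 8.45% and 13.5% of all tested genes, with a median of 0.06. RNA of RIM8 (log2 change 0.49), which acts in the Rim101 signalling pathway, and SSN8 (0.62), the cyclin C that is also called Ume3, rose (edgeR adjusted p = 0.014 and 0.019). These calls were lost without RNA replicate 1 at 0 µM or replicate 2 at 10 µM and, for SSN8, without RNA replicate 2 at 0 µM. Both genes had few footprints for their RNA, with log2 ratios at 0 µM of -3.16 and -5.07. Antisense or read-through RNA across them cannot be told apart from their own mRNA. RNA of HST1 (-0.50), a deacetylase that works with the middle-gene repressor Sum1, and RIM15 (-0.39), a nutrient-responsive kinase, fell (edgeR adjusted p = 0.030 and 0.042). HST1 lost its call without either RNA replicate at 0 µM or replicate 2 at 10 µM, with library totals and with DESeq2, and RIM15 in 12 of 16 settings.

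In footprints, 1 of these 25 regulators rose and 7 fell, beside 18.7% and 19.8% of all tested genes, with a median of -0.14 against -0.02 over all tested genes. RME1, the repressor of IME1 in haploid cells, rose from 57.2 ± 0.24 to 104 ± 0.42 CPM (SD, n = 2; log2 0.86, edgeR adjusted p = 0.00070). XBP1, a transcriptional repressor, fell from 87.8 ± 11.7 to 29.1 ± 1.37 CPM (log2 -1.59, edgeR adjusted p = 0.00013). XBP1 was also called in efficiency (-1.18, edgeR adjusted p = 0.040), but not in 7 of 15 other settings, among them limma voom and 6 of the 8 omissions of 1 library. The change of RIM15 was -0.87 (edgeR adjusted p = 0.00034). Of the partners of Ume6 in repression, SIN3 footprints fell by 0.57 (edgeR adjusted p = 0.0014) and RPD3 stood at -0.12 (edgeR adjusted p = 0.44). SIN3 RNA was not called (-0.26, edgeR adjusted p = 0.086). Footprints of UME1 and ISW2, in the same list, stood at 0.18 and 0.06 (edgeR adjusted p = 0.32 and 0.70).

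Of 30 further genes of recombination and the chromosome axis, 26 were in the table and 22 were tested. RNA of 2 rose and none fell, beside 8.45% and 13.5% of all tested genes (median 0.24). They were MLH3, a mismatch repair protein that resolves crossovers (0.65, edgeR adjusted p = 0.0035), and NDJ1, a telomere protein of meiosis (1.14, edgeR adjusted p = 0.036). NDJ1 averaged only 18.1 reads a library. MLH3 RNA stood at 2931 CPM at 0 µM and 4595 CPM at 10 µM, but its footprints at 102 and 140 CPM. Its log2 footprint to RNA ratios were -4.84 and -5.03. Antisense or read-through RNA across MLH3 cannot be told apart from its own mRNA. NDJ1 lost its call with DESeq2 and without RNA replicate 1 at 0 µM or either RNA replicate at 10 µM (range 0.73 to 1.78). Footprints of 1 rose and 3 fell, beside 18.7% and 19.8% of all tested genes (median -0.16). MLH3 rose by 0.46, and MEI4, a partner of Spo11 in break formation, and MSH4, a crossover factor, fell, with changes of -1.79 and -1.72 (edgeR adjusted p = 0.016, 0.0023 and 0.0046). The MLH3 footprint call needed footprint replicate 2 at 0 µM and both 10 µM footprint libraries.

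Among 31 middle genes and prospore membrane genes, all tested, RNA of 1 rose and none fell, again beside 8.45% and 13.5% (median 0.17). It was SPR1, a glucanase (0.86, edgeR adjusted p = 0.0097), whose footprints rose as well, by 1.05 (edgeR adjusted p = 0.0013). The SPR1 RNA call was lost without RNA replicate 1 at either concentration. Footprints of 5 rose and 3 fell, beside 18.7% and 19.8% of all tested genes (median -0.27). SPO77, needed for spore wall formation, rose from 16.7 to 43.0 CPM (1.33, edgeR adjusted p = 0.0047). SPO71, which acts in prospore membrane growth, and SPR28, a sporulation septin, fell by 1.64 and 1.49 (edgeR adjusted p = 7.1e-05 and 0.010), the SPR28 call being lost without footprint replicate 2 at 10 µM. SPR28 averaged only 18.8 reads a library. SPO71 was the 1 gene of the 31 called in efficiency, beside 1.79% of all tested genes (0.893% lower). It had 57.5 ± 11.01 CPM of RNA without spermidine and 66.0 ± 3.92 CPM with it (SD, n = 2, log2 0.19, edgeR adjusted p = 0.46). Its efficiency fell by 1.83 (edgeR adjusted p = 0.0058), a call kept in all 15 other settings.

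Of 20 spore wall genes, all tested, RNA of none rose and 1 fell, beside 8.45% and 13.5% of all tested genes (median 0.15). It was the glucanosyltransferase gene GAS2 (-1.09, edgeR adjusted p = 0.016), a call lost without RNA replicate 2 at either concentration. Footprints of 1 rose and 2 fell, beside 18.7% and 19.8% of all tested genes (median -0.23). CHS3, a chitin synthase that growing cells also use, rose by 0.33, and the chitin deacetylase gene CDA1 and the glucan synthase homologue FKS3 fell by 1.49 and 1.14 (edgeR adjusted p = 0.037, 0.0059 and 0.020). CHS3 lost its call with library totals, with DESeq2 and on leaving out footprint replicate 2 of 0 µM or any 10 µM footprint library. FKS3 lost it with limma voom and on leaving out footprint replicate 1 of 0 µM or any 10 µM footprint library. The median footprint difference was negative in all 4 lists, between -0.27 and -0.14, while the median RNA difference was positive in all 4, between 0.06 and 0.24. Over all tested genes the footprint and RNA medians were -0.02 and 0.0016. The 10 genes went the other way, with medians of 0.29 in footprints and -0.09 in RNA. These lists were described by counts and medians, with no test of a list.

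The footprint to RNA ratio was called lower at 0 µM in 32.7% of all tested genes and in 41.2% of those in the lowest 20% by RNA per kb. At 0 µM the median log2 ratio was -1.81 for recombination and axis genes (16 of 22 called lower), -1.33 for middle and prospore membrane genes (20 of 31) and -1.51 for spore wall genes (16 of 20). For entry regulators, many of which act in growing cells, it was 0.05 (9 of 25). At 10 µM the medians were -2.49, -1.45, -1.75 and -0.25 in the same order, with 20, 20, 16 and 10 genes called lower, beside 31.4% of all tested genes and 40.4% of those in the lowest 20% by RNA per kb.

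**Figure D4:**
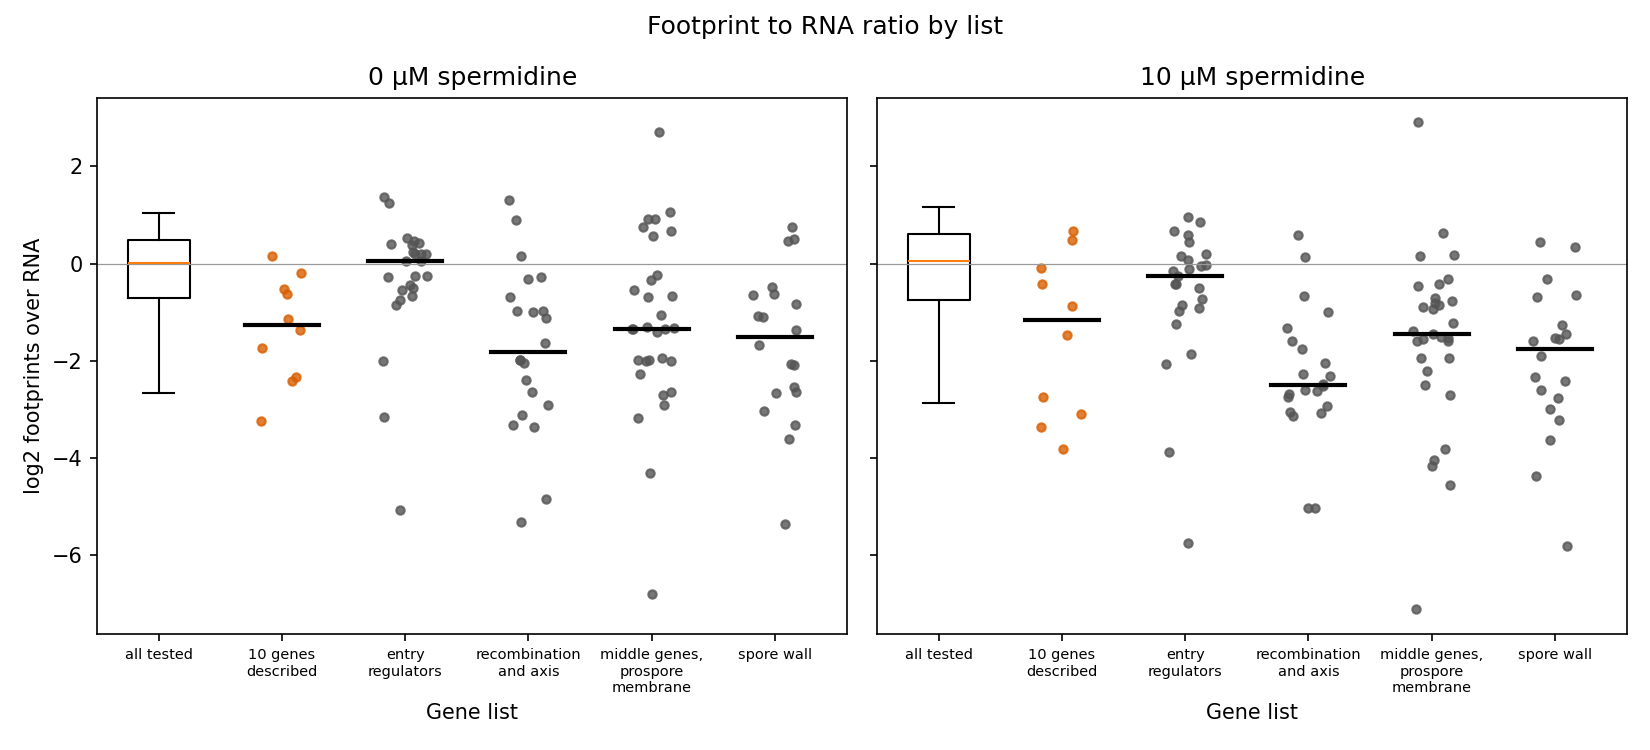
Log2 footprint to RNA ratio at 0 µM (left) and 10 µM (right) spermidine for all tested genes (box from the 25th to the 75th percentile with median, whiskers to the 5th and 95th), the 10 genes described (orange) and the 4 other lists (grey); points are genes and bars are list medians. The recombination, middle and spore wall lists lie lower than the typical gene, with medians from -2.49 to -1.33, and the entry regulators near it.

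Likeness of pattern was measured as the root mean square difference of log2 CPM over the 8 libraries after centring each assay on its own mean. The genes most like GIP1 were ECM8 (0.25), ASG7 (0.26) and NDJ1 (0.27), with RNA changes of 1.25, 1.42 and 1.14 and footprint changes of 0.47, 0.87 and 0.45. SMA2 was nearest to PEF1 (0.28), NCA3 (0.30) and CSS1 (0.36), and SMA1 to SLZ1 (0.20), YCL048W-A (0.28) and PAI3 (0.30). The 0.5 CPM added before taking logs is close to SMA1 footprints at 10 µM (0.313 and 0.734 CPM). The genes nearest to SMA1 therefore depend on that constant and on few reads. SLZ1 encodes a subunit of the complex that methylates mRNA during meiosis and belongs to the list of entry regulators. Its footprints stood at 29.0 CPM at 0 µM and 6.81 CPM at 10 µM, with RNA at 11.1 and 12.7 CPM. SPO11 was nearest to HSU1 (0.14), PCL5 (0.19) and MAG1 (0.21), DMC1 to SEC72 (0.12), RCH1 (0.14) and IFM1 (0.15), and HOP1 to STE5 (0.31), ARG8 (0.34) and RTR2 (0.35). Footprint replicates at 10 µM were far apart for both HOP1 (5.33 and 18.6 CPM) and STE5 (277 ± 203 CPM, SD, n = 2).

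The URS1 element is also found in promoters outside meiosis, and 4 such genes, named after their values were seen, are described here. RNA of 1 and footprints of 2 were called higher, beside 8.45% and 18.7% of all tested genes. Whether URS1 or Ume6 bears on these values was not tested. INO1 (inositol-3-phosphate synthase) rose in RNA, from 31.4 to 440 CPM (log2 3.80, edgeR adjusted p = 9.6e-06), and in footprints, from 19.8 to 825 CPM (log2 5.36, edgeR adjusted p = 2.8e-07). CAR1 (arginase), CAR2 and ACS1 stood at -0.05, -0.10 and 0.03 in RNA (edgeR adjusted p = 0.88, 0.83 and 0.93). In footprints CAR1 rose by 0.40 (edgeR adjusted p = 0.049), a call lost in 9 of 16 other settings, 6 of them omissions of 1 library, and CAR2 and ACS1 stood at 0.25 and 0.72 (edgeR adjusted p = 0.40 and 0.089).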

How the data were processed

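The authors deposited raw read counts per gene for 4 RNA and 4 footprint libraries. The builds R64 and sacCer3 and the tools edgeR, cutadapt and Bowtie (1.1.2 and 1.2.2) are in the submitters' processing notes. How strand, multi-mapping reads and the parts of a gene were counted is not given in the sources used here. The table had 3 lines with no gene name and no counts. RefSeq (R64) matched 5543 of 5545 IDs.

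Groups came from the sample titles. In R 4.3.3, edgeR 4.0.16 was run on the counts with filterByExpr (minimum count 10, minimum total 15), TMM factors over all 8 libraries, and 1 quasi-likelihood model with 4 group coefficients and 4 residual degrees of freedom. Changes are relative to the typical gene. There were 5 contrasts, with calls at an adjusted p (Benjamini-Hochberg, all tested genes) below 0.05. SEs are the log2 change over the root of F. The procedure was also run on simulated counts whose spread followed the trend over all genes. That run does not cover genes whose replicates vary more than the trend. Alternatives used RLE factors, library totals, other filters, limma voom 3.58.1, DESeq2 1.42.0, a replicate block, each assay alone and each library left out.

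The 10 genes and all lists were chosen with earlier results of these data known. Named were the 10 genes and the 2 called list genes with the smallest p per list, direction and assay. Called neighbours and the 3 most similar genes (log2 of CPM plus 0.5) were named as well. SIN3, RPD3, UME1, ISW2 and the URS1 genes fall outside these rules and were named after their values were seen. The planned promoter motif search was not run, and no sequences were used.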

Additional observations from a re-analysis of the deposited data

How the results depend on the processing

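Of 754 recomputed values of the 10 genes, 684 kept their direction and their side of the threshold, 31 lost a call, 21 gained one and 18 changed sign, none of these 18 called before or after. Of the sign changes, 17 came with 1 library left out. Over those omissions the log2 RNA change ran from -0.601 to 0.243 for DMC1, -0.769 to 0.184 for IME1, -0.482 to 0.0635 for IME2, -0.545 to 1.05 for SMA1 and -0.862 to 0.111 for SMA2. SMA1 RNA was -0.0117 with each assay fitted alone. The footprint difference ran from -0.199 to 0.402 for IME2 and -0.662 to 0.0978 for UME6, and the efficiency difference from -0.0154 to 0.584 for IME2, -0.405 to 0.221 for NDT80 and -0.0715 to 0.688 for UME6. The footprint to RNA ratio ran from -1.09 to 0.508 for SMA1 and -0.478 to 0.0651 for SMA2 at 0 µM, and from -1.3 to 0.497 for HOP1 at 10 µM.

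Counts of calls over all genes with 1 library left out ran from 669 to 1080 in RNA (1203 with all libraries), 1392 to 2218 in footprints (2113) and 20 to 151 in efficiency (98). The efficiency calls among the 10 genes numbered 0 in the reported fit. They numbered 2 (GIP1 and SMA2) with RLE factors, library totals, DESeq2 and the replicate block, beside 100, 120, 137 and 181 genes in all. The SMA2 call rests on footprint libraries known when the gene was chosen. Nothing is read from it or from the footprint calls. Footprint calls, 5 of 10, numbered 3 with a mean count of at least 20 and 3 with DESeq2, which gave SPO11 and SMA1 no adjusted p, and 3 to 5 with a library left out. Calls in the ratio at 10 µM, 7 of 10, numbered 4 with a mean count of at least 20, where fewer genes were tested. The labels do not say that replicate numbers pair libraries, and deviations of same-numbered libraries correlated at 0.0344 to 0.23 across genes; with the replicate block 181 genes were called in efficiency. For list genes the same settings were applied after the values were seen. Where a library was left out, the lone library of its group was assumed to vary like the other groups. Depth limits SMA1, SMA2, SPO11, HOP1 and IME1, each with under 20 reads in at least 1 library.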
